A study of Mus musculus with 4 samples.

Results

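The genes of the MCM helicase were followed across 4 arrays of mouse embryonic fibroblasts (MEFs) that differed in the state of the retinoblastoma protein Rb. They were taken as every probe whose array symbol was Mcm2, Mcm3, Mcm4, Mcm5, Mcm6, Mcm7, Mcm8 or Mcm10, which gave 8 genes of 30872 symbols and 15 probes of 45281. Mcm3 and Mcm6 lie on chromosome 1, Mcm8 and Mcm10 on chromosome 2, Mcm7 on chromosome 5, Mcm2 on chromosome 6, Mcm5 on chromosome 8 and Mcm4 on chromosome 16. Total RNA had been hybridized to Illumina whole-genome BeadChips, on which each probe of 50 bases is read by many beads carrying the same sequence. There was 1 array per condition, so no difference has a replicate check, no p-value was computed, and the bead standard error given with each value covers only the measurement within an array.

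All 4 cultures were FVB;129 MEFs carrying floxed Rb. Parental MEFs received a solution lacking TAT-Cre and media in place of virus, and keep endogenous Rb. Rb-deleted MEFs received TAT-Cre, a cell-permeable recombinase, in 2 treatments of 1 h set 3 h apart, and media alone. WT Rb-HA MEFs received TAT-Cre and a retrovirus for HA-tagged wild type Rb, and ΔCdk Rb-HA MEFs received TAT-Cre and a retrovirus for Rb that cannot be phosphorylated by Cdks because its Cdk acceptor sites were changed. Per the study's methods all cultures had been released from contact arrest and treated with doxorubicin, which damages DNA, although the sample labels do not mention it. No array carried an empty virus, so infection and the Rb it delivered cannot be told apart where infected and uninfected MEFs are compared. In these bulk RNA samples, fewer cells in a phase or of a type cannot be told apart from less RNA per cell.

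Mcm2 to Mcm7 form the hetero-hexameric ring that is loaded onto origins in G1 phase and unwinds DNA in S phase. Mcm10 is not a ring subunit and acts when the loaded helicase is turned on, and Mcm8 is a related helicase known for its part in homologous recombination. The ring genes are classic targets of E2F transcription factors, which Rb binds and represses, and hyper-phosphorylation of Rb by Cdks releases E2F.

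Promoters of 6 of the genes are printed first because they hold, or lack, the E2F-type motif that the grouping of these genes as Rb-E2F targets refers to. RefSeq windows (assembly GRCm38.p6) of 250 bases before to 50 bases after the gene start were found for 7 of the 8 genes, with 2 windows for Mcm7 and no entry for Mcm4. The lines run 5′ to 3′ along the gene's strand from 170 bases before to 30 bases after the start, and capitals mark matches to TTTCCCGC, TTTCGCGC, TTTGCCGC or TTTGGCGC on either strand.
Mcm6, chr1:128359676-128359875, minus strand: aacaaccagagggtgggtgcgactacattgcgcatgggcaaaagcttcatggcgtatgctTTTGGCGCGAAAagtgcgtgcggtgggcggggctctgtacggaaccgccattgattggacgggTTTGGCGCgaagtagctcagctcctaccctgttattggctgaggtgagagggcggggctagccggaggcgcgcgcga
Mcm5, chr8:75109339-75109538, plus strand: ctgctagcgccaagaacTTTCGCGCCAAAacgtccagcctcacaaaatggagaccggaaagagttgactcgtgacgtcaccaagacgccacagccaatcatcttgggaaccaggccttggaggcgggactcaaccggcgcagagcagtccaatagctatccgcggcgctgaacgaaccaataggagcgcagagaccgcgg
Mcm3, chr1:20820283-20820482, minus strand: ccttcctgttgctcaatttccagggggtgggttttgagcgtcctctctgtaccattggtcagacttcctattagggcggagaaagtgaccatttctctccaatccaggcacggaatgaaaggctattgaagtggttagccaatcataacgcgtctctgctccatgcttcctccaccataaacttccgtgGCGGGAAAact
Mcm7, chr5:138171854-138172053, minus strand: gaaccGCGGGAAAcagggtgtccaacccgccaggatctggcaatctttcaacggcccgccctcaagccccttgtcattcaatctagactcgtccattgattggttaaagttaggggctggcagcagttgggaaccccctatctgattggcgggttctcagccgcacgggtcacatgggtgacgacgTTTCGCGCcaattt
Mcm2, chr6:88898751-88898950, minus strand: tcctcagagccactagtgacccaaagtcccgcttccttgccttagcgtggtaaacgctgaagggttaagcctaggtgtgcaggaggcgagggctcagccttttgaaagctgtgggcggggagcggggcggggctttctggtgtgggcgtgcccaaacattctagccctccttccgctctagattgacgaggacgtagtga
Mcm10, chr2:5012762-5012961, minus strand: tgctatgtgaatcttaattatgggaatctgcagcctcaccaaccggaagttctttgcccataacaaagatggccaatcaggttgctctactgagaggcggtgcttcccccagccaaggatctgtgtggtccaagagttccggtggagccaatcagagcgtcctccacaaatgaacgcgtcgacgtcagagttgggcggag

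An E2F-type match was present in the windows of 5 of the 7 genes (Mcm3, Mcm5, Mcm6, Mcm7 and Mcm8), while 2.6% of the 27025 genes with a window had one. Mcm6 held 3 matches, of which those starting at -110 and -106 from the gene start overlap on opposite strands and the last starts at -47. Mcm5 held an overlapping pair of the same kind starting at -153 and -149. In Mcm3 both matches lay after the start, at bases 20 and 39, the latter outside the printed stretch. The second window of Mcm7 held a match at -165 and another at base 17, and its first window held none. Mcm8 held a match at base 40, outside the printed range of its window. Mcm2 and Mcm10 had none of these letters in their windows, which says nothing about binding of E2F. Cores made of the same letters without the leading T, which every longer match contains, were found in the same 5 genes and in 10.9% of all genes. CCAAT was present on either strand in 7 of 7 genes against 41.1% of all genes, and TTTGAA, the cell cycle homology region, in Mcm2 alone against 20.2%. These are matches of letters and not measured binding sites.

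**Figure D1:**
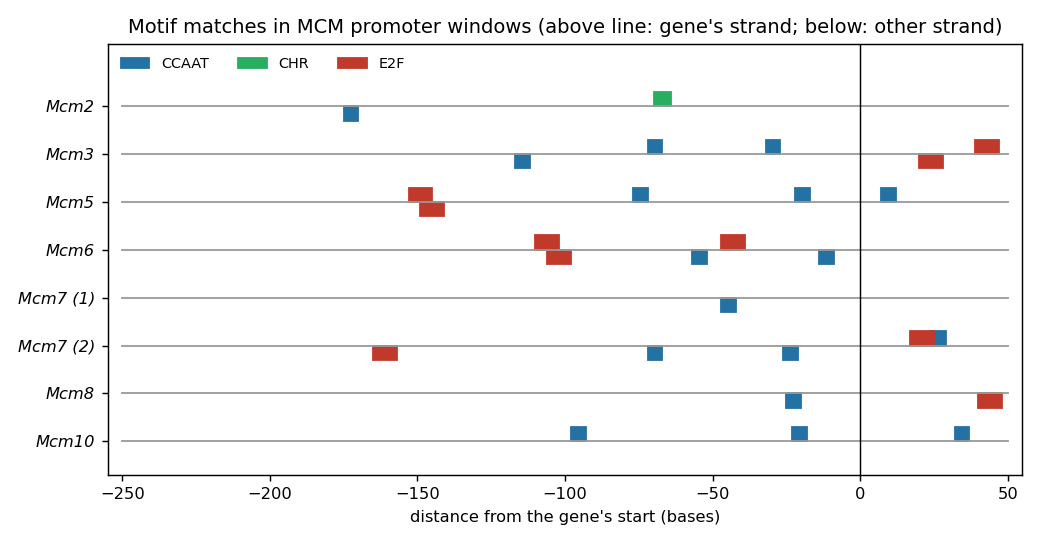
Position of motif matches in the 8 promoter windows of the 7 MCM genes that have one, with the distance from the gene start in bases on the horizontal axis and 1 line per window. Boxes above a line lie on the gene's strand and boxes below on the other strand, and E2F-type matches are seen in the windows of Mcm3, Mcm5, Mcm6, Mcm7 (second window) and Mcm8.

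What the arrays read of these transcripts differed between genes, and 3 probes that stand for their genes are shown in lower case because Mcm3 was near background in parental MEFs, Mcm6 had a high ratio after Rb deletion under each background correction tried, and Mcm7 had the lowest of the ring subunits.
Mcm3, from transcript position 1754: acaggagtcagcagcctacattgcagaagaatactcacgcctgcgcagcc
Mcm6, from transcript position 2416: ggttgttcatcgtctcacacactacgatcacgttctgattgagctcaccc
Mcm7, from transcript position 2003: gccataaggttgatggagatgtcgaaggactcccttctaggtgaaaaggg

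Across the 4 arrays the mean deposited intensity was 335.7 to 345.8, between 15950 and 16740 probes were detected (detection p-value below 0.01), and the median number of beads per probe was 44. Rb1, the deleted gene, read 543 in parental MEFs, 160.5 after deletion, 181 with WT Rb-HA and 170.1 with ΔCdk Rb-HA at transcript position 4421. That probe lies near the end of the transcript, and whether the deleted part covers it is not given in the sources used here. Its values on both infected arrays stayed near that of the Rb-deleted array, so it gives no check of which Rb version a culture carried. All 10 fibroblast markers were detected, with summed intensities of 48060 to 55040, and none of 4 endothelial markers was. Of 12 leukocyte markers 9 were detected, and their summed intensity was 9428 in parental MEFs against 4907 after Rb deletion, 4429 with WT Rb-HA and 5443 with ΔCdk Rb-HA, with the pan-leukocyte marker Ptprc not detected on any array. Of 5 epithelial markers 3 were detected, with summed intensities of 206 to 249. Whether the loss of leukocyte signal had a part in the MCM values was not tested.

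Of the 15 MCM probes, 13 were detected on at least 1 array and 8 on all 4, and 7 of the 8 genes could be compared. The exception was Mcm8, whose single probe read 42.1 in parental MEFs, 43.05 after deletion, 34.7 with WT Rb-HA and 40.0 with ΔCdk Rb-HA and was detected on no array. Intensities depend on the probe, so the levels of different genes are not set against each other. Ratios below are on the log2 scale after background correction and quantile normalization, with the brightest probe standing for its gene, and in all 7 genes that probe was detected on all 4 arrays.

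Mcm2, a ring subunit, read 178 ± 8.37 (bead standard error, 30 beads) in parental MEFs, 631 ± 19.8 after Rb deletion, 314 ± 11.4 with WT Rb-HA and 374 ± 8.76 with ΔCdk Rb-HA. Mcm5, its neighbour in the ring, read 367 ± 11.4, 1274 ± 28.3, 565 ± 14.2 and 950.1 ± 21.8 on the same arrays. In both genes parental was lowest and Rb-deleted highest, and the ΔCdk Rb-HA array of Mcm5 lay much nearer to the Rb-deleted array than that of Mcm2. Relative to parental, the log2 ratio of Mcm2 was 2.00 after Rb deletion, 0.95 with WT Rb-HA and 1.25 with ΔCdk Rb-HA, with bead standard errors of 0.09, 0.10 and 0.09. For Mcm5 these ratios were 1.91 (0.06), 0.71 (0.06) and 1.52 (0.06), the bead standard error standing in parentheses here and for the genes that follow.

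Mcm3, another ring subunit, read 63.8 ± 2.13 in parental MEFs, 223 ± 9.59 after Rb deletion, 140.1 ± 7.15 with WT Rb-HA and 159 ± 6.64 with ΔCdk Rb-HA. Its parental value was close to background (detection p-value 0.00107), and its ratios moved most with the background correction. The ratio was 2.32 (0.11) in Rb-deleted MEFs, the 2nd highest of the 12616 genes compared, and 1.66 with a larger offset in the background correction (50 in place of 16). With WT Rb-HA it was 1.54 (0.12) and with ΔCdk Rb-HA 1.80 (0.11), and with the larger offset these were 1.02 and 1.22. In the main setting Mcm3 had the highest ratio of the MCM genes on each infected array.

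Mcm4, Mcm6 and Mcm7 make up the core of the ring that has helicase activity on its own. Mcm4 read 1218 ± 19.7 in parental MEFs, 3342 ± 68.4 after Rb deletion, 1878 ± 31.4 with WT Rb-HA and 2371 ± 39.4 with ΔCdk Rb-HA, giving ratios to parental of 1.56 (0.04), 0.70 (0.03) and 1.04 (0.04). These are the ratios with the smallest bead error among the MCM genes. Mcm6 at position 2416 read 273 ± 16.7, 1164 ± 33.9, 507 ± 20.4 and 624 ± 26.5 on the same arrays, and its ratios were 2.25 (0.11), 1.02 (0.11) and 1.36 (0.12). Mcm7 at position 2003 read 209 ± 13.7, 397 ± 22.7, 232 ± 12.2 and 295 ± 17.8, with ratios of 1.04 (0.14), 0.21 (0.13) and 0.62 (0.14). All 3 genes were lowest in parental MEFs and highest in Rb-deleted MEFs, and the WT Rb-HA array of Mcm7 was within 2 bead standard errors of the parental array.

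Mcm10, at position 3337, read 115 ± 5.28 in parental MEFs, 169 ± 8.34 after Rb deletion, 113 ± 4.56 with WT Rb-HA and 161 ± 5.79 with ΔCdk Rb-HA. The parental and WT Rb-HA arrays differed by less than the bead error, with a ratio of -0.02 (0.12), and so did the ΔCdk Rb-HA and Rb-deleted arrays, with a ratio of -0.05 (0.10) of the former to the latter. Its ratios to parental in Rb-deleted and ΔCdk Rb-HA MEFs were 0.69 (0.12) and 0.64 (0.10), just inside and just outside the 1.6-fold filter of the study, which is 0.68 on the log2 scale. With a larger offset the first of these was 0.53 and no longer past the filter.

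**Figure D2:**
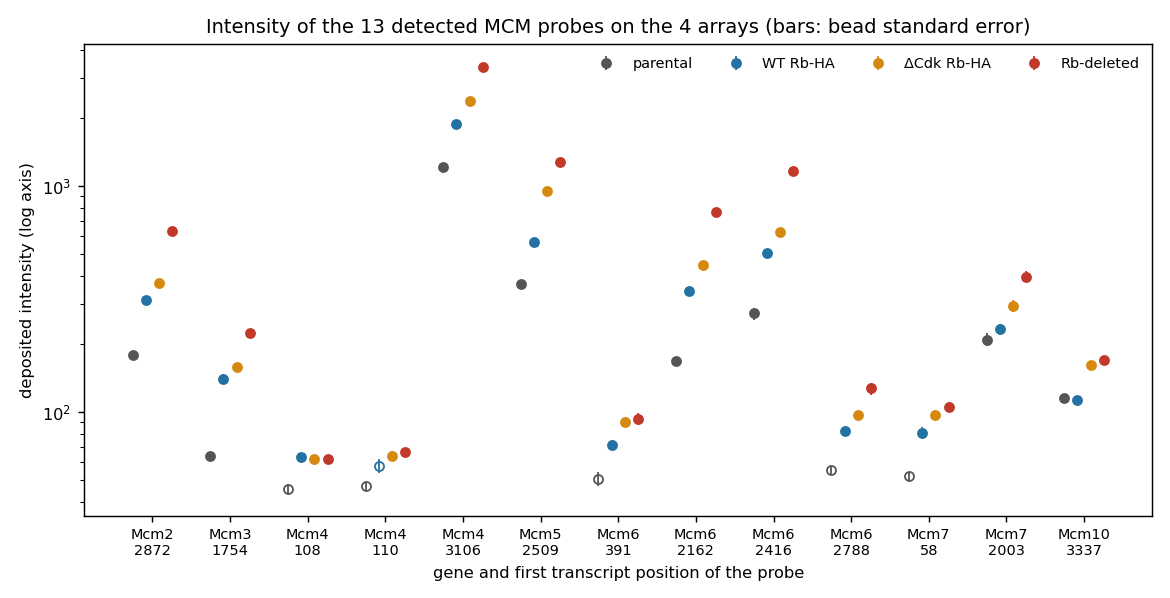
Deposited intensity (vertical log axis) of the 13 MCM probes detected on at least 1 array, in 4 colours for the 4 arrays, with bars for the bead standard error. Open circles mark a probe that was not detected on that array, and for the 8 probes detected on all arrays the Rb-deleted value is the highest.

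Further probes were available for Mcm4, Mcm6, Mcm7 and Mcm10. The Mcm6 probe at position 2162 read 167 in parental MEFs, 766 after Rb deletion, 345 with WT Rb-HA and 446 with ΔCdk Rb-HA, with ratios to parental of 2.40 (0.07), 1.19 (0.08) and 1.63 (0.07). It and the probe at position 2416 put the 4 arrays in the same order. The Mcm6 probe at position 2788 was not detected in parental MEFs, and on the corrected scale its lower bounds were 3.14-fold after Rb deletion, 1.75-fold with WT Rb-HA and 2.23-fold with ΔCdk Rb-HA. The probe at position 391 was not detected in parental MEFs either, and its lower bounds were 2.14-fold, 1.41-fold and 2.02-fold. These bounds hold for the main background correction, and the deposited readings of the probe at position 2788 give 2.30-fold after Rb deletion and 1.76-fold with ΔCdk Rb-HA.

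The 2 Mcm7 probes differed in WT Rb-HA and in ΔCdk Rb-HA MEFs. At position 58 the probe read 52.0 in parental MEFs, where it was not detected, 105.7 after Rb deletion, 81.1 with WT Rb-HA and 97.2 with ΔCdk Rb-HA. On the corrected and normalized scale its bounds on the latter 3 arrays were 2.50-fold, 1.69-fold and 2.24-fold, whereas the deposited readings, which include background, give 2.03-fold, 1.56-fold and 1.87-fold. The brighter probe was at 2.06-fold, 1.16-fold (a log2 ratio of 0.21) and 1.54-fold on these arrays. On the corrected scale the side of 1.6-fold on which Mcm7 lay on the infected arrays thus depended on the probe. The 2 dim Mcm4 probes, at positions 108 and 110, share 48 bases and count as 1 reading. They read 45.7 and 47.0 on the parental array, where neither was detected, and 61.9 and 66.4 on the Rb-deleted array, giving bounds of 1.18-fold and 1.31-fold. The second Mcm10 probe, at position 2886, read 41.3 to 46.2 and was detected on no array.

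Set against all genes, 7 of 7 MCM genes were increased past 1.6-fold in Rb-deleted compared to parental MEFs, where 2.14% of the 12616 genes were. Their median ratio was 1.91 and that of all genes 0.02. Ordered by ratio they ran Mcm3, Mcm6, Mcm2, Mcm5, Mcm4, Mcm7 and Mcm10, from 5.01-fold to 1.61-fold, and of the adjacent gaps only those between Mcm5 and Mcm4 and between Mcm4 and Mcm7 exceeded 2 bead standard errors. The place of Mcm3 depended on the background correction, since with the larger offset (1.66) and without correction (1.80) it came after Mcm6, Mcm5 and Mcm2. Mcm3, Mcm6, Mcm2, Mcm5 and Mcm4 held ranks 2, 3, 6, 7 and 11 of all genes, with Mcm7 at 56 and Mcm10 at 255.

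In WT Rb-HA compared to parental MEFs 5 of 7 were increased past 1.6-fold, against 0.888% of all genes, and the median ratio was 0.71. Mcm7 and Mcm10 were not past it. Mcm4 and Mcm5 (0.70 and 0.71) were barely past it, and the count was 3 of 7 when arrays were scaled to the 75th percentile or left without normalization between them.

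In ΔCdk Rb-HA compared to parental MEFs 5 of 7 were increased past 1.6-fold, against 2.58% of all genes, with a median ratio of 1.25. Mcm7 (0.62) and Mcm10 (0.64) were again below the filter, although all 7 ratios exceeded 2 bead standard errors. These comparisons share the parental array.

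**Figure D3:**
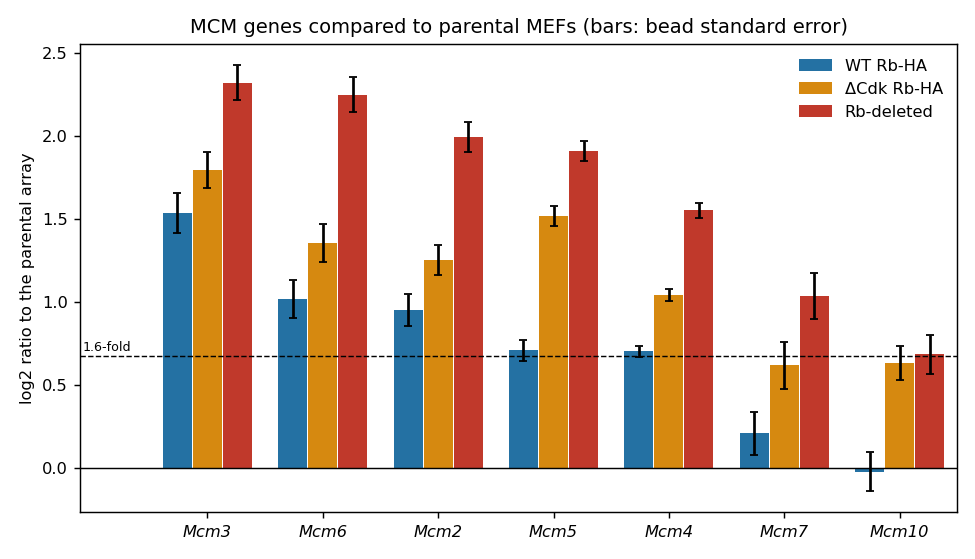
Log2 ratio to the parental array (vertical axis) of the 7 detected MCM genes on the WT Rb-HA, ΔCdk Rb-HA and Rb-deleted arrays, with bars for the bead standard error and a dashed line at 1.6-fold. In all 7 genes the Rb-deleted bar is the highest and the WT Rb-HA bar the lowest, and the Mcm10 bar of WT Rb-HA lies at -0.02.

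Adding back wild type Rb was compared with deletion alone. In WT Rb-HA compared to Rb-deleted MEFs 7 of 7 MCM genes were decreased past 1.6-fold, against 0.484% of all genes, so that 7 of the 61 genes decreased were MCM genes. Without background correction 6 of 27 were, and with the larger offset 5 of 23. Their ratios ran from -1.23 (0.08) for Mcm6, the lowest of all 12616 genes, and -1.20 (0.05) for Mcm5 through -1.05 (0.07) for Mcm2, -0.85 (0.04) for Mcm4, -0.83 (0.12) for Mcm7 and -0.79 (0.11) for Mcm3 to -0.71 (0.11) for Mcm10. The median was -0.85 and that of all genes -0.02. With a larger offset Mcm3 (-0.64) and Mcm10 (-0.54) were no longer past 1.6-fold. Among further probes detected on both arrays, those of Mcm6 at positions 2162 (-1.20) and 2788 (-0.85) were past it. Those of Mcm6 at position 391 (-0.60), Mcm7 at position 58 (-0.56) and Mcm4 at position 108 (-0.03) were not. When the detected probes of a gene were averaged, 6 of 7 genes were decreased past 1.6-fold.

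The ΔCdk Rb-HA array differed less from the Rb-deleted array in these 7 genes than the WT Rb-HA array did. In ΔCdk Rb-HA compared to Rb-deleted MEFs 2 of 7 were decreased past 1.6-fold, Mcm6 at -0.89 (0.08) and Mcm2 at -0.74 (0.06), against 1.95% of all genes. The count was 1 when the detected probes of a gene were averaged. Mcm3 was at -0.53 (0.10), Mcm4 at -0.51 (0.05), Mcm7 at -0.42 (0.13) and Mcm5 at -0.39 (0.05). By the probes that stand for them, these 6 genes differed by over 2 bead standard errors and Mcm10 did not. The median of the 7 was -0.51, and that of all genes -0.03. Of the further probes detected on both arrays, that of Mcm6 at position 2162 (-0.77) was past 1.6-fold. Those of Mcm6 at positions 2788 (-0.50) and 391 (-0.08), Mcm7 at position 58 (-0.16) and Mcm4 at positions 108 (-0.02) and 110 (-0.10) were not.

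The ΔCdk Rb-HA and WT Rb-HA arrays, both infected, were compared directly. By the probes that stand for them, all 7 genes were higher with ΔCdk Rb-HA by over 2 bead standard errors. Of all genes 48.5% had a ratio above 0, and how many differed by over 2 bead standard errors was not counted in any comparison. Of the 7 MCM genes 1 passed 1.6-fold, against 0.84% of all genes. That gene was Mcm5 at 0.81 (0.05), rank 55 of all genes, followed by Mcm10 at 0.66 (0.10), Mcm7 at 0.41 (0.13), Mcm4 at 0.34 (0.03), Mcm6 at 0.34 (0.09), Mcm2 at 0.30 (0.07) and Mcm3 at 0.26 (0.12). No adjacent gap in this order exceeded 2 bead standard errors. Further Mcm6 probes, at positions 391, 2162 and 2788, were at 0.52 (0.14), 0.44 (0.06) and 0.35 (0.13). Those of Mcm7 at position 58 and Mcm4 at position 108 were at 0.40 (0.16) and 0.01 (0.14). The pair of ΔCdk Rb-HA and WT Rb-HA shares no array with the pair of Rb-deleted and parental. Of the 270 genes increased past 1.6-fold in Rb-deleted MEFs, 164 (60.7%) had a ratio above 0 in this direct comparison, and of all genes 48.5% did.

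**Figure D4:**
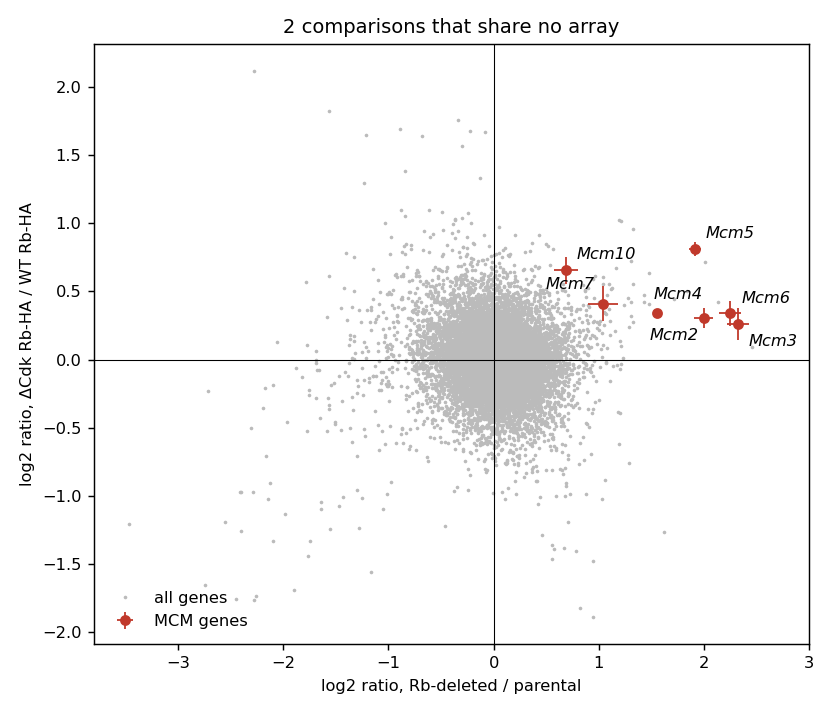
Log2 ratio of Rb-deleted to parental MEFs (horizontal axis) and of ΔCdk Rb-HA to WT Rb-HA MEFs (vertical axis) for all 12616 genes (grey) and the 7 MCM genes (red, bars for the bead standard error). All 7 MCM genes lie above 0 on both axes, with Mcm5 highest on the vertical axis at 0.81 and Mcm3 farthest right at 2.32.

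On all 4 arrays together, 6 of 7 genes rose in the order parental, WT Rb-HA, ΔCdk Rb-HA, Rb-deleted, as did 7 of the 8 probes detected on every array, while 5.74% of all genes had this order. Mcm10 was the exception, with WT Rb-HA just below parental. The part of the rise after Rb deletion that was left with each Rb version was taken on the linear scale, after background correction and normalization. It uses the parental and Rb-deleted arrays for both. With WT Rb-HA it was 47.4% (bead standard error 5.40) for Mcm3, 32.4% (1.80) for Mcm4, 31.1% (3.18) for Mcm2, 27.3% (2.86) for Mcm6, 23.0% (1.87) for Mcm5, 14.9% (8.59) for Mcm7 and -2.34% (13.2) for Mcm10. With ΔCdk Rb-HA it was 90.9% (16.9) for Mcm10, 67.6% (3.17) for Mcm5, 61.7% (5.82) for Mcm3, 54.7% (2.91) for Mcm4, 51.0% (12.2) for Mcm7, 46.2% (3.22) for Mcm2 and 41.6% (3.64) for Mcm6. Mcm10 had the lowest share left with WT Rb-HA and the highest with ΔCdk Rb-HA, but also the largest bead errors. Mcm5 was next highest with ΔCdk Rb-HA, while with WT Rb-HA both Mcm10 and Mcm7 were lower than it.

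Other genes that load or turn on the helicase were described from a list of 18, of which 15 were detected and Orc2, Gmnn and Mcm9 were not. In Rb-deleted compared to parental MEFs 8 of the 14 detected on both arrays were increased past 1.6-fold, where 2.14% of all genes were, with a median of 0.77. Cdt1, which brings the helicase to the origin, was at 1.43 (0.07), Gins2, part of the active helicase complex, at 1.33 (0.11), and Cdc6, a loader, at 1.32 (0.12). Cdc7, the kinase that phosphorylates the loaded ring, was at 1.09 (0.10), and its activating subunit Dbf4 at -0.19 (0.06). The others past the filter were Gins1 (0.96), Orc6 (0.82), Cdc45 (0.81) and Gins4 (0.73). Orc1 was undetected on the parental array, and its lower bound of 1.47-fold does not reach the filter.

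On both infected arrays the median of the list was lower than after deletion alone. With WT Rb-HA 1 gene of the 14 was increased past 1.6-fold, Gins2 at 0.87 (0.13), against 0.888% of all genes, and the median was 0.21. With ΔCdk Rb-HA 7 were, against 2.58%, and the median was 0.67. In WT Rb-HA compared to Rb-deleted MEFs 4 were decreased past 1.6-fold (Cdc7, Gins1, Cdt1 and Cdc6, from -0.85 to -0.76), out of 15 detected on both arrays and against 0.484% of all genes. In ΔCdk Rb-HA compared to Rb-deleted MEFs none of the 15 was, against 1.95%, with ratios from -0.36 for Orc1 to 0.20 for Cdc6. With ΔCdk Rb-HA compared to WT Rb-HA 1 gene passed, Cdc6 at 0.96 (0.10), against 0.84%. Mcmbp, a binding partner of the MCM proteins, was at 0.48 (0.05), 0.18 (0.05) and 0.27 (0.05) relative to parental after Rb deletion, with WT Rb-HA and with ΔCdk Rb-HA, and never past the filter.

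**Figure D5:**
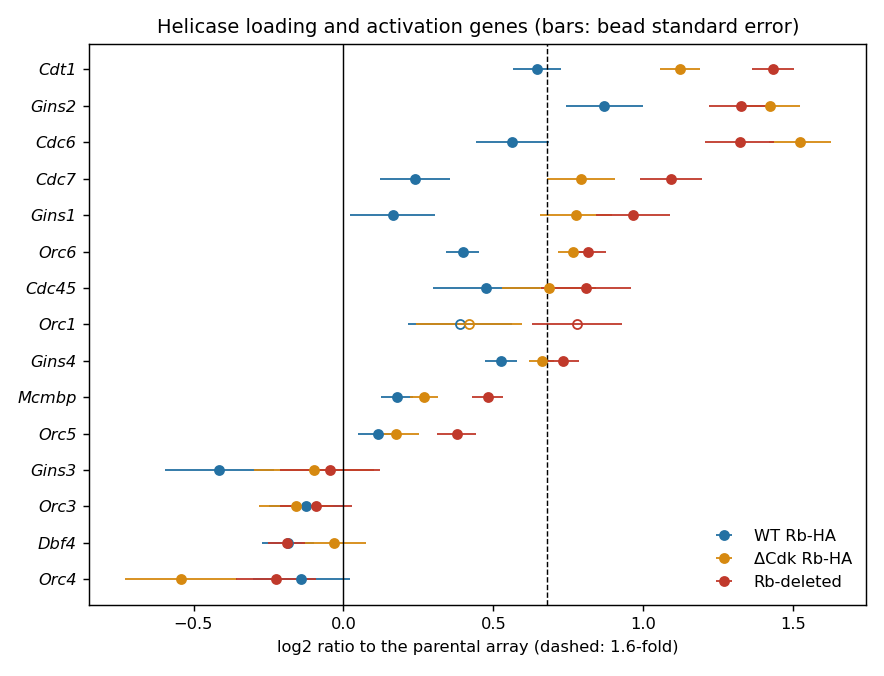
Log2 ratio to the parental array (horizontal axis, dashed line at 1.6-fold) of the 15 detected genes of helicase loading and activation on the WT Rb-HA, ΔCdk Rb-HA and Rb-deleted arrays, with bars for the bead standard error. Open circles mark Orc1, which was not detected in parental MEFs and has only a bound. In Rb-deleted MEFs 8 of the other 14 genes lie past the line, and in WT Rb-HA MEFs 1 (Gins2).

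A list of 18 G2/M genes, of which 13 were detected, served to show the other side of the cell cycle. Over the genes detected on both arrays of a pair, 0 of 12 were increased past 1.6-fold in Rb-deleted and 0 of 11 in WT Rb-HA compared to parental MEFs, with medians of 0.13 and -0.20. Of all genes 2.14% and 0.888% were. In ΔCdk Rb-HA MEFs 2 of 12 G2/M genes were, against 2.58% of all genes. These were Birc5 at 0.91 (0.05) and Cdk1 at 0.76 (0.07), and the median of the list was 0.23. The G2/M genes moved in the same direction as the MCM genes in a further pair of comparisons. In WT Rb-HA compared to Rb-deleted MEFs 10 of 11 were below 0, and 0 were decreased past 1.6-fold, against 0.484% of all genes. Their median was -0.24, beside -0.85 for the MCM genes and -0.02 for all genes. With ΔCdk Rb-HA compared to WT Rb-HA 12 of 12 were above 0, where 48.5% of all genes were. Their median was 0.43, beside 0.34 for the MCM genes. Most G2/M genes moved the other way in ΔCdk Rb-HA compared to Rb-deleted MEFs, where 9 of 12 were above 0. Their median there was 0.18, beside -0.51 for the MCM genes, all 7 of which were below 0, and -0.03 for all genes. The share of all genes above or below 0 was not counted in this pair or in WT Rb-HA compared to Rb-deleted MEFs. Whether cell cycle position had a part in the MCM differences was not tested.

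The genes whose ratios to parental were most like the median of the MCM genes on the 3 arrays (Euclidean distance over 3 log2 ratios, among 10830 genes that were no MCM gene and were detected on all arrays) were Wdhd1 at a distance of 0.26, Chaf1b at 0.27, Lig1 at 0.32, LOC100045677 at 0.48 and Chaf1a at 0.49. The distances of the MCM genes themselves ran from 0.26 for Mcm2 to 1.56 for Mcm10. Wdhd1, a replisome protein, was at 1.84, 0.90 and 1.41 after Rb deletion, with WT Rb-HA and with ΔCdk Rb-HA. Lig1, the ligase that joins Okazaki fragments, was at 1.71, 0.59 and 1.03.

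Genes that lie within 1 kb of an MCM gene in GRCm38.p6 were read beside it. Cops6, next to Mcm7, was at 0.10 (0.07), -0.03 (0.07) and 0.13 (0.06) relative to parental in the same order. The 3 probes of Ap4m1, also next to Mcm7, were at 0.24 to 0.49 in Rb-deleted MEFs. Trmt6, next to Mcm8, was at -0.18 (0.08) in Rb-deleted MEFs, and Prkdc, next to Mcm4, was not detected on any array. None of these neighbours passed 1.6-fold. Mir25, Mir93 and Mir106b lie inside Mcm7 and have no probe on the array.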

How the data were processed

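The authors deposited, for each probe and array, a summarized intensity on a linear scale without normalization, a detection p-value in steps of 1 in 936, the bead standard error and the count of beads. How the authors summarized the beads is not given in the sources used here. Labels of the samples gave the conditions. Genome positions of probes there mix builds, so only chromosome or transcript positions are usable. Among the symbols, 40 had been turned into dates, of which 34 were restored by Entrez number with a RefSeq table of GRCm38.p6.

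Background was corrected with limma 3.58.1 in R 4.3.3 (neqc: normexp inferred from detection p-values, offset 16), followed by quantile normalization of the 4 arrays and log2. A gene was kept if any array detected one of its probes (p-value below 0.01), and the probe with the highest mean stood for its gene, which left 12616 genes and 17746 probes. Past 1.6-fold, the filter of the study, a gene was counted. Bead standard errors were carried through each array's mapping and combined over both arrays of a ratio. For a probe undetected on 1 array only, the fold of the pair is a lower bound, set against the higher of its own value and the lowest detected value there. Tables were handled in Python 3.11.15 (numpy 2.4.6, pandas 2.3.3, matplotlib 3.10.9), and the calculation was tested on simulated data.

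Named were all MCM probes, Rb1, genes within 1 kb, listed genes of helicase loading and activation past 1.6-fold, and the 5 genes nearest to the MCM median. Mcmbp, Dbf4, undetected list members and the G2/M genes named were added after their values were seen. The MCM genes and all lists, motifs and alternatives were chosen with earlier results of these data known. Alternatives changed the background correction, normalization, filter on dim probes, probes per gene, fold threshold and use of bead error.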

Additional observations from a re-analysis of the deposited data

How the results depend on the processing

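With 1 array per condition no array could be left out, and no paired analysis was possible because each condition has 1 array. The 6 MCM medians were recomputed under 8 alternatives and kept their direction in each, and 41 of these 48 values moved by less than the median bead standard error of the genes. Counts were recomputed under 11 alternatives, and 58 of 66 stayed within 1.5 times the main count. These tallies include values that had no room to move. A looser and a stricter filter on dim probes kept the same MCM genes, because their brightest probes were detected on every array and Mcm8 passed neither. Requiring 2 bead standard errors as well removed no MCM gene, since each ratio past 1.6-fold already exceeded them. Such values say nothing about stability. Median ratios to parental in Rb-deleted MEFs were 1.80 without background correction, 1.66 with an offset of 50 and 1.73 without a filter on dim probes, and in ΔCdk Rb-HA MEFs they were 1.13, 1.09 and 1.15. Taking the mean of a gene's detected probes moved the median of ΔCdk Rb-HA against Rb-deleted MEFs to -0.39 and the count decreased there to 1. The count increased in WT Rb-HA against parental MEFs was 3 with scaling to the 75th percentile, 3 without normalization between arrays and 2 at 2-fold. At 2-fold, 3 MCM genes were decreased in WT Rb-HA against Rb-deleted MEFs, 0 in ΔCdk Rb-HA against Rb-deleted MEFs, and 0 were increased in ΔCdk Rb-HA against WT Rb-HA MEFs, where 2 were at 1.5-fold. The threshold sets the last group by construction. Without a filter the medians are over 8 genes, because Mcm8, detected on no array, enters at 0.05 in Rb-deleted and -0.05 in ΔCdk Rb-HA MEFs. The cause of the other shifts was not tested. Over all genes, the counts past 1.6-fold (in the order of the comparisons in the report: 270, 112, 325, 61, 246 and 106) were 143, 55, 172, 27, 119 and 54 without background correction and 124, 46, 151, 23, 109 and 52 with the offset of 50. At 1.5-fold they were 444, 232, 502, 118, 405 and 199, and at 2-fold 67, 18, 78, 11, 68 and 23. Of 168 single-gene ratios under the 4 background and normalization alternatives, 168 kept their sign, and 97 of the 108 that had been past 1.6-fold still were. Signal over background limits Mcm8, the dim Mcm4 probes and the parental value of Mcm3.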
